A study of Homo sapiens with 6 samples.

Results

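Contractile and myoepithelial actin genes were chosen by their symbols, as a list of 10 out of the 20802 genes measured: ACTA2, TAGLN, CNN1, CNN2, MYL9, TPM1, TPM2, CALD1, ACTN1 and SRF. All 10 were in the table of amplicon counts, and 9 passed the filter on low counts. CNN1 was the exception, with 0 reads in all 6 libraries. All libraries were labelled as MCF10A, an established benign line of human mammary epithelium. Cells had been left untransfected (WT) or carried a plasmid for eGFP (eGFP). Others carried the same bicistronic plasmid with the human GIRK1 coding sequence in front (GIRK1). GIRK1 is a subunit of a G-protein-gated potassium channel and is encoded by KCNJ3. Both transfected lines were selected with G418 and sorted for eGFP, so each is a sorted population and not 1 clone, and all lines were harvested by trypsin before they were confluent. Each condition had 2 libraries, and the labels do not say that these came from separate cultures, so p-values measure the spread between these libraries only.

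In smooth muscle and in myoepithelial cells of the mammary gland, bundles of alpha smooth muscle actin slide along myosin filaments. Tropomyosin, calponin, caldesmon and transgelin lie on the actin filament and set how myosin meets it, phosphorylation of the regulatory light chain switches the myosin on, and alpha-actinin ties the filaments together. Many of these genes are switched on by SRF, a transcription factor that binds a short A/T-rich element, the CArG box, with cofactors of the MRTF family that leave the cytoplasm as free actin monomers become scarce. Basal mammary cells in culture often hold parts of this apparatus without being contractile myoepithelium.

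The promoters of 3 members held a CArG box (CC, then 6 letters that are each A or T, then GG, which is found on both strands at once) in the window of 250 bases before and 50 bases after a RefSeq start site. Promoter windows were found for 8 of the 10 members in the RefSeq table (build GRCh38.p14). TAGLN and MYL9 had none there. Of the 17 windows of these 8 members, 3 held the element (17.6%), against 454 of 35116 windows over all genes (1.29%). The 250 bases before the start are shown for those 3, because they place the element for the transcription factor of the list and for a pair of actin-binding members. Capitals mark the CArG box, and each sequence runs 5′ to 3′ on the gene's own strand.

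SRF: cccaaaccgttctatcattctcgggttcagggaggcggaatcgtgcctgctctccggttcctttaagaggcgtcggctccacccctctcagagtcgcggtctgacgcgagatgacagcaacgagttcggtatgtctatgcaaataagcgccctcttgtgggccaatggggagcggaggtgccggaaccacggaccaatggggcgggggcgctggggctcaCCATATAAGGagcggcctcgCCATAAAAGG
CNN2: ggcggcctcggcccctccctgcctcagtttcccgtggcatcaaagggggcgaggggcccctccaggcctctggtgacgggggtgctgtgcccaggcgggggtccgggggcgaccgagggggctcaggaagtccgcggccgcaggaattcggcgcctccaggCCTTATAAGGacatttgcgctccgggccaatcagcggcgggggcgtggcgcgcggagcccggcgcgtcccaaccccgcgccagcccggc
ACTN1: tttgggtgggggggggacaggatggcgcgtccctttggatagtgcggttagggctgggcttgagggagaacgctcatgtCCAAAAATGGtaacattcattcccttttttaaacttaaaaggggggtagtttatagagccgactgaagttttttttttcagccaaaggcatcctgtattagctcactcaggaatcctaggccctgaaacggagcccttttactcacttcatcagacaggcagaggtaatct

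The SRF sequence lies at chr6:43171019-43171268 on the plus strand, and its 2 elements begin 30 and 10 bases before the start. The CNN2 sequence lies at chr19:1026358-1026607 on the plus strand, with the element beginning 89 bases before the start. The ACTN1 sequence lies at chr14:68977567-68977816 on the minus strand, with the element 171 bases before 1 of the 4 ACTN1 starts in that table. A match of letters is a description of the window and shows no binding. Only exact matches of the pattern were sought, so a window without a match may still hold an element that departs from it.

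In GENCODE 29 (GRCh38) the members lie on 9 chromosomes. ACTA2 is at chr10:88935074-88991339 (minus strand), TAGLN at chr11:117199321-117204782 (plus), TPM1 at chr15:63042632-63071915 (plus), TPM2 at chr9:35681992-35690121 (minus) and CALD1 at chr7:134744252-134970728 (plus). CNN1 (chr19:11538717-11550323) and CNN2 (chr19:1026581-1039068) share chromosome 19 on the plus strand, MYL9 is at chr20:36541484-36551447 (plus), ACTN1 at chr14:68874143-68979440 (minus) and SRF at chr6:43171299-43181507 (plus). Each gene was read through 1 amplicon of 97 to 110 bases on a spliced transcript, so isoforms of TPM1, TPM2 and CALD1 were not separated, and levels cannot be compared between genes, because amplicons differ in efficiency. ACTA2 overlaps STAMBPL1, ACTA2-AS1 and FAS on the other strand, TAGLN overlaps PCSK7, MYL9 overlaps DLGAP4-AS1, TPM1 overlaps TPM1-AS and AC079328.2, CNN2 overlaps AC011558.1, and ACTN1 spans the pseudogenes HMGN1P3 and BANF1P1. These overlaps are of whole genes, and whether they reach the amplicons was not checked. Whether counting used strand is not stated, so the values of these 6 members may be less certain.

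The libraries held 2506120 to 16040556 reads, the fewest in WT replicate 1, and 3 reads, the smallest count read as a level here, came to 0.187 to 1.20 RPM (reads scaled to a library of 1e+06 reads). Reads copied by PCR are not independent molecules, so the intervals and this floor cover only the error of counting. KCNJ3, the overexpressed gene, had 217 and 355 RPM in the GIRK1 libraries, 0 reads in both eGFP libraries and WT replicate 2, and 19.2 RPM (48 reads) in WT replicate 1. The library labelled WT replicate 1 stood apart from the other 5: the 14 luminal epithelial markers summed to 19934 RPM there and to 2199 to 2735 RPM in the others, while the 12 basal markers summed to 426 RPM there and to 9612 to 17957 RPM in the others. Of the 9 luminal markers tested, 8 were higher in WT replicate 1 by sign and 1 was lower. The values of WT replicate 1 therefore go against those of its labelled replicate. WT replicate 1 and WT replicate 2 are kept apart below. The names of the data carry a tag for the GIRK1 libraries that the other 4 lack. Should the tag mark a run of the sequencer, its effect and that of GIRK1 cannot be told apart.

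**Figure D1:**
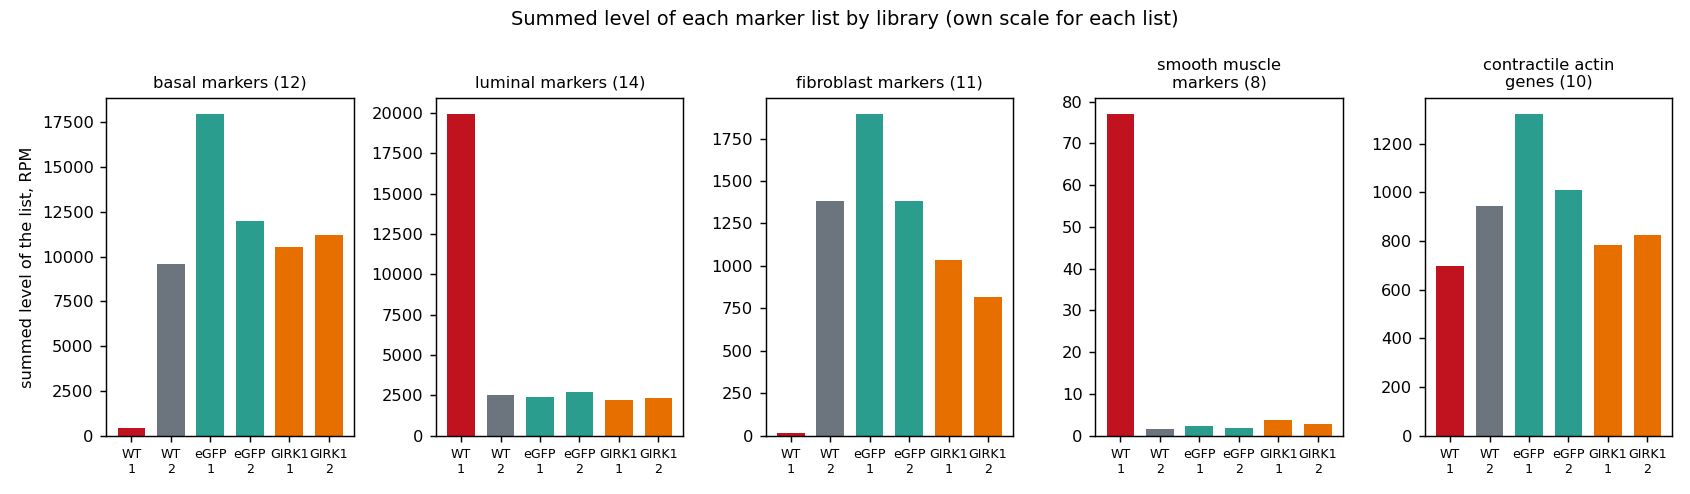
Summed RPM of 4 marker lists and of the 10 contractile actin genes in each of the 6 libraries, with a vertical scale of its own for each list and the number of genes in parentheses. WT replicate 1 is high in luminal markers (19934 RPM) and low in basal (426 RPM) and fibroblast markers (18.0 RPM). Its sum over the contractile actin genes (696 RPM) lies below the lowest of the other 5 (785 RPM). TPM1 alone gives 377 RPM of the sum in WT replicate 1 and at most 49.7 RPM in the other 5, so the sum hides members that are lower there.

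The libraries other than WT replicate 1 held reads for the actin-binding part of this apparatus, and 0 or few reads for several muscle-type markers. CNN1, the calponin of differentiated smooth muscle, had 0 reads in every library, where 3 reads would be 0.187 to 1.20 RPM. Of 8 smooth muscle and pericyte markers, LMOD1 and RGS5 had 0 reads in all 6 libraries. ACTG2, the enteric smooth muscle actin, had 0 reads in the 5 libraries and 3.99 RPM in WT replicate 1. MYH11, the smooth muscle myosin heavy chain, reached at most 0.450 RPM in the 5 libraries and 2.39 RPM in WT replicate 1. MYOCD, the muscle-specific cofactor of SRF, also had 0 reads throughout. ACTA2 was present at 39.2 to 51.8 RPM in the 5 libraries. Basal markers that myoepithelial cells share were present too, with the keratins KRT5 at 3862 to 10660 RPM, KRT14 at 306 to 592 RPM and KRT17 at 853 to 4513 RPM, whereas TP63, a basal transcription factor, had 0 reads in all 6. With 1 amplicon per gene, 0 reads cannot be told apart from an amplicon that takes up no reads. The marker reads were thus mixed, and the members are described here as contractile actin genes.

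**Figure D2:**
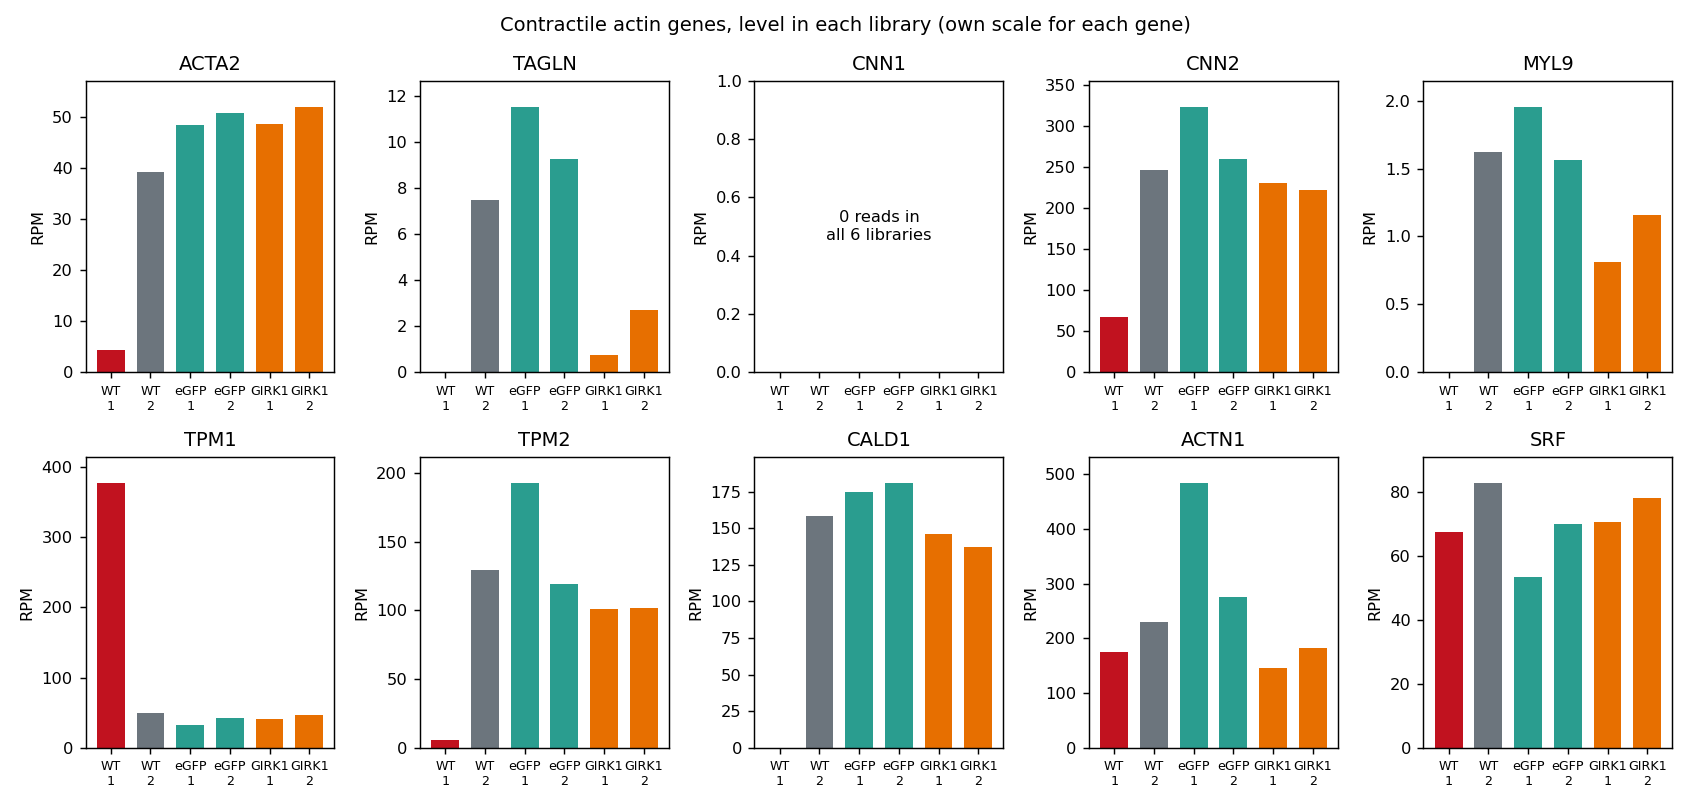
Level of each of the 10 contractile actin genes in RPM (vertical axis, starting at 0, own scale for each gene) in each library. Red marks WT replicate 1, grey WT replicate 2, green eGFP and orange GIRK1; CNN1 had 0 reads throughout. WT replicate 1 is the lowest bar for ACTA2 (4.39 RPM) and TPM2 (5.98 RPM) and the highest for TPM1 (377 RPM), and the GIRK1 bars of TAGLN (0.720 and 2.71 RPM) lie below those of the eGFP libraries and WT replicate 2.

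Comparing GIRK1 with eGFP asks how the contractile genes differ between cells that carry the channel subunit and cells that carry only the marker. None of the 9 members tested passed the threshold (an adjusted p below 0.05 by the quasi-likelihood test of edgeR, with Benjamini-Hochberg adjustment over 11546 genes), against 1.43% of all genes tested. The 2 members with the smallest unadjusted p were TAGLN and ACTN1, both lower in GIRK1. The DESeq2 test called the same 2, with adjusted p = 0.0121 for TAGLN and 0.00926 for ACTN1, against 4.81% of all genes. With the WT libraries taken as 1 group, as labelled, edgeR called 0% of all genes (0 of 11546, with 606 at an unadjusted p below 0.05). The members' median log2 fold change was -0.40, beside 0.02 over all genes tested, and was -0.22 without eGFP replicate 1 and -0.61 without eGFP replicate 2. By sign, 7 of the 9 were lower in GIRK1 and 2 were higher.

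In 6 of the 9 members (TAGLN, CNN2, MYL9, TPM2, CALD1 and ACTN1) both GIRK1 libraries lay below both eGFP libraries, as they did for 25.1% of all genes tested. The same 6 lay below all 3 of the eGFP libraries and WT replicate 2, against 19.5% of genes. SRF was the 1 member with both GIRK1 libraries above both eGFP libraries, as 29% of all genes had, and in ACTA2 and TPM1 the groups overlapped.

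ACTA2 encodes alpha smooth muscle actin, the actin by which myoepithelial cells and myofibroblasts are usually recognised. Its level was 48.4 and 50.8 RPM in the eGFP libraries, 48.6 and 51.8 RPM in the GIRK1 libraries and 39.2 RPM in WT replicate 2. These 5 libraries lay within a 1.32-fold range, and the groups overlapped. The mean was 49.6 ± 1.72 RPM in eGFP and 50.2 ± 2.25 RPM in GIRK1 (SD, n = 2 each). The log2 fold change was -0.01 (SE 0.21, adjusted p = 0.978), with a sign that turned under other scalings. Against WT replicate 2 it was 0.38 (SE 0.26, adjusted p = 0.821).

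TAGLN encodes transgelin (SM22 alpha), which binds and bundles actin and is an early marker of smooth muscle. Its level was 11.5 and 9.28 RPM in the eGFP libraries (59 and 95 reads), 7.48 RPM in WT replicate 2 (120 reads), and 0.720 and 2.71 RPM in the GIRK1 libraries (8 and 28 reads). The GIRK1 libraries lay below the other 3, and their own values differed widely for so few reads. The mean was 10.4 ± 1.57 RPM in eGFP and 1.71 ± 1.40 RPM in GIRK1 (SD, n = 2 each), a 6.07-fold difference of means. The log2 fold change was -2.63 (SE 0.61), and the adjusted p of 0.0984 missed the threshold. In fits without an eGFP or GIRK1 library, 1 arm is a lone library assumed to vary like the other groups. Over the fits without 1 library the log2 fold change ran from -3.87 to -1.95, with -1.95 without GIRK1 replicate 1. Against WT replicate 2 the log2 fold change was -2.10 (SE 0.68, adjusted p = 0.535).

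CNN2, a calponin found in many non-muscle cells, steadies actin filaments and slows myosin on them. It stood at 323 and 260 RPM in eGFP, 246 RPM in WT replicate 2, and 231 and 222 RPM in GIRK1. The GIRK1 values were the lowest of these 5, by a margin smaller than the gap between the eGFP libraries. The log2 fold change was -0.40 (SE 0.23, adjusted p = 0.378) against eGFP and -0.10 against WT replicate 2. Against eGFP it was -0.18 without eGFP replicate 1 and -0.61 without eGFP replicate 2.

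The tropomyosins TPM1 and TPM2 wind along the actin filament, and CALD1, caldesmon, holds myosin off it. TPM2 had 193 and 119 RPM in eGFP, 129 RPM in WT replicate 2, and 101 and 102 RPM in GIRK1. The GIRK1 pair was almost level while eGFP replicate 1 was 1.62-fold above eGFP replicate 2. The log2 fold change of TPM2 was -0.67 (SE 0.29, adjusted p = 0.280) against eGFP. It was -0.22 without eGFP replicate 1 and -1.02 without eGFP replicate 2. TPM1 had 32.0 and 42.7 RPM in eGFP, 49.7 RPM in WT replicate 2, and 40.4 and 46.4 RPM in GIRK1, so the groups overlapped (log2 fold change 0.19, SE 0.22, adjusted p = 0.675). CALD1 had 175 and 181 RPM in eGFP, 158 RPM in WT replicate 2, and 146 and 137 RPM in GIRK1. The CALD1 replicates lay close together and the groups did not overlap, at 178 ± 4.18 RPM in eGFP and 141.6 ± 6.54 RPM in GIRK1 (SD, n = 2 each). Its log2 fold change of -0.36 (SE 0.20, adjusted p = 0.360) missed the threshold.

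MYL9 encodes a regulatory light chain of myosin II, the subunit whose phosphorylation starts contraction. It stood at 1.95 and 1.56 RPM in eGFP, 1.62 RPM in WT replicate 2, and 0.810 and 1.16 RPM in GIRK1. These MYL9 levels rest on 9 to 26 reads each, and the difference (log2 fold change -0.84, SE 0.59, adjusted p = 0.474) missed the threshold.

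ACTN1, alpha-actinin-1, cross-links actin filaments in stress fibres and ties them to focal adhesions. Its level was 484 and 275 RPM in eGFP, 231 RPM in WT replicate 2, and 146 and 182 RPM in GIRK1. The GIRK1 libraries were the lower ones, and eGFP replicate 1 stood 1.76-fold above eGFP replicate 2. The mean was 379 ± 147 RPM in eGFP and 164 ± 26.0 RPM in GIRK1 (SD, n = 2 each), a 2.31-fold difference of means. The log2 fold change was -1.26 (SE 0.34), and the adjusted p of 0.129 missed the threshold. In fits without an eGFP or GIRK1 library, 1 arm is a lone library assumed to vary like the other groups. Without eGFP replicate 1 the log2 fold change was -0.73, and without eGFP replicate 2 it was -1.66. Without GIRK1 replicate 1 it was -1.09 and without GIRK1 replicate 2 it was -1.45. Against WT replicate 2 it was -0.47 (SE 0.40, adjusted p = 0.860). By the rule of the methods, read here as means of RPM 2-fold apart each group keeping its coefficient of variation under 0.7, ACTN1 was the 1 member picked, against 6.29% of all genes. TAGLN failed that rule on the coefficient of its GIRK1 libraries, 0.820.

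SRF, the transcription factor of the list, had 53.4 and 70.1 RPM in eGFP, 82.7 RPM in WT replicate 2, and 70.7 and 78.2 RPM in GIRK1. GIRK1 lay above eGFP and below WT replicate 2, and the gap between the eGFP libraries was larger than either step. The log2 fold change was 0.24 (SE 0.21, adjusted p = 0.575) against eGFP and -0.13 against WT replicate 2.

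**Figure D3:**
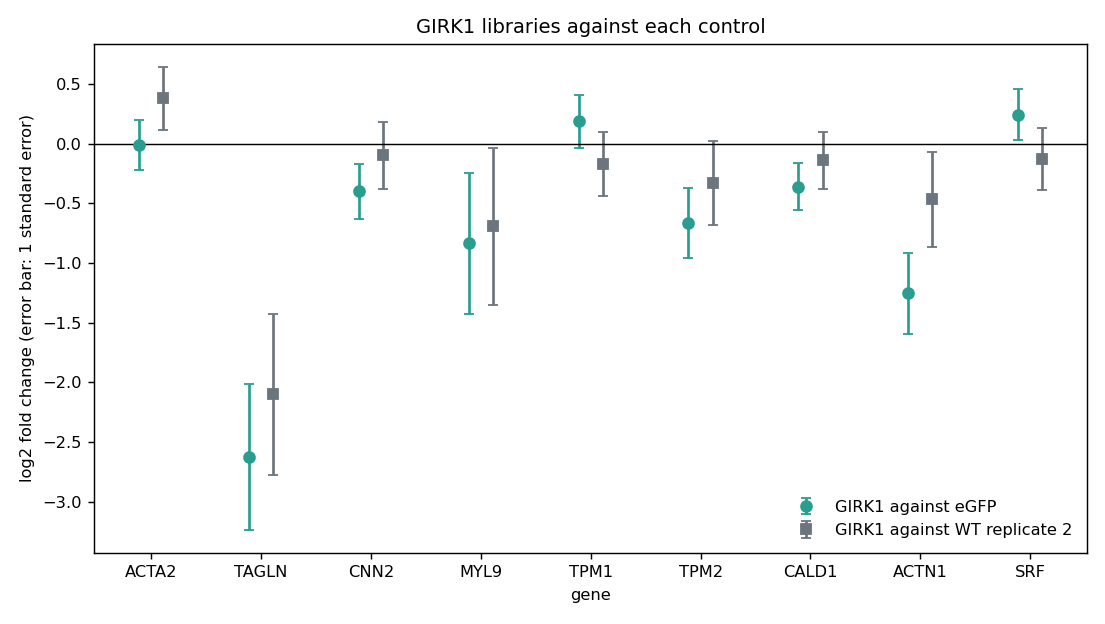
Log2 fold change of the 9 tested members (horizontal axis) in GIRK1 against eGFP (green circles) and against WT replicate 2 (grey squares), with bars of 1 standard error from edgeR. TAGLN lies lowest in both comparisons (-2.63 and -2.10), ACTN1 is at -1.26 against eGFP and at -0.47 against WT replicate 2, and 0 members passed the adjusted threshold in either.

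Comparing GIRK1 with WT replicate 2, which shares the GIRK1 libraries with the comparison above and rests on a lone control library, gave smaller distances for most members. None of the 9 members was called by edgeR, against 0.234% of all genes tested, and DESeq2 called 0. TAGLN had the smallest unadjusted p of the members in this comparison. The members' median log2 fold change was -0.17, beside 0.01 over all genes. With the WT libraries pooled as labelled, CNN2, TPM2, CALD1 and SRF turned to the other sign in this comparison, since WT replicate 1 then entered the control.

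Several lists bear on the same apparatus, and 1 of their genes passed the test between GIRK1 and eGFP, where 1.43% of all genes tested passed. Among 16 family relatives (other actins, tropomyosins, calponins, light chains and actinins), 9 were tested and 0 passed. All 9 had a lower level in GIRK1 by sign (median log2 fold change -0.53). The amplicons of the cytoplasmic actins took the most reads of this list. ACTB, beta-actin, had 8981 and 3752 RPM in eGFP, 3746 RPM in WT replicate 2, and 2615 and 2730 RPM in GIRK1. ACTG1, gamma-actin, had 6517 and 3809 RPM in eGFP, 3217 RPM in WT replicate 2, and 2153 and 2069 RPM in GIRK1. For both, eGFP replicate 1 stood well above the rest of these 5 and the GIRK1 libraries were lowest (log2 fold change -1.31, SE 0.42, adjusted p = 0.175 for ACTB and -1.34, SE 0.31, adjusted p = 0.102 for ACTG1). CNN3, the third calponin, was picked after its values were seen. It had 73.5 and 56.1 RPM in eGFP, 43.6 RPM in WT replicate 2, and 22.4 and 13.2 RPM in GIRK1, with no overlap (log2 fold change -1.90, SE 0.33, adjusted p = 0.0512).

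**Figure D4:**
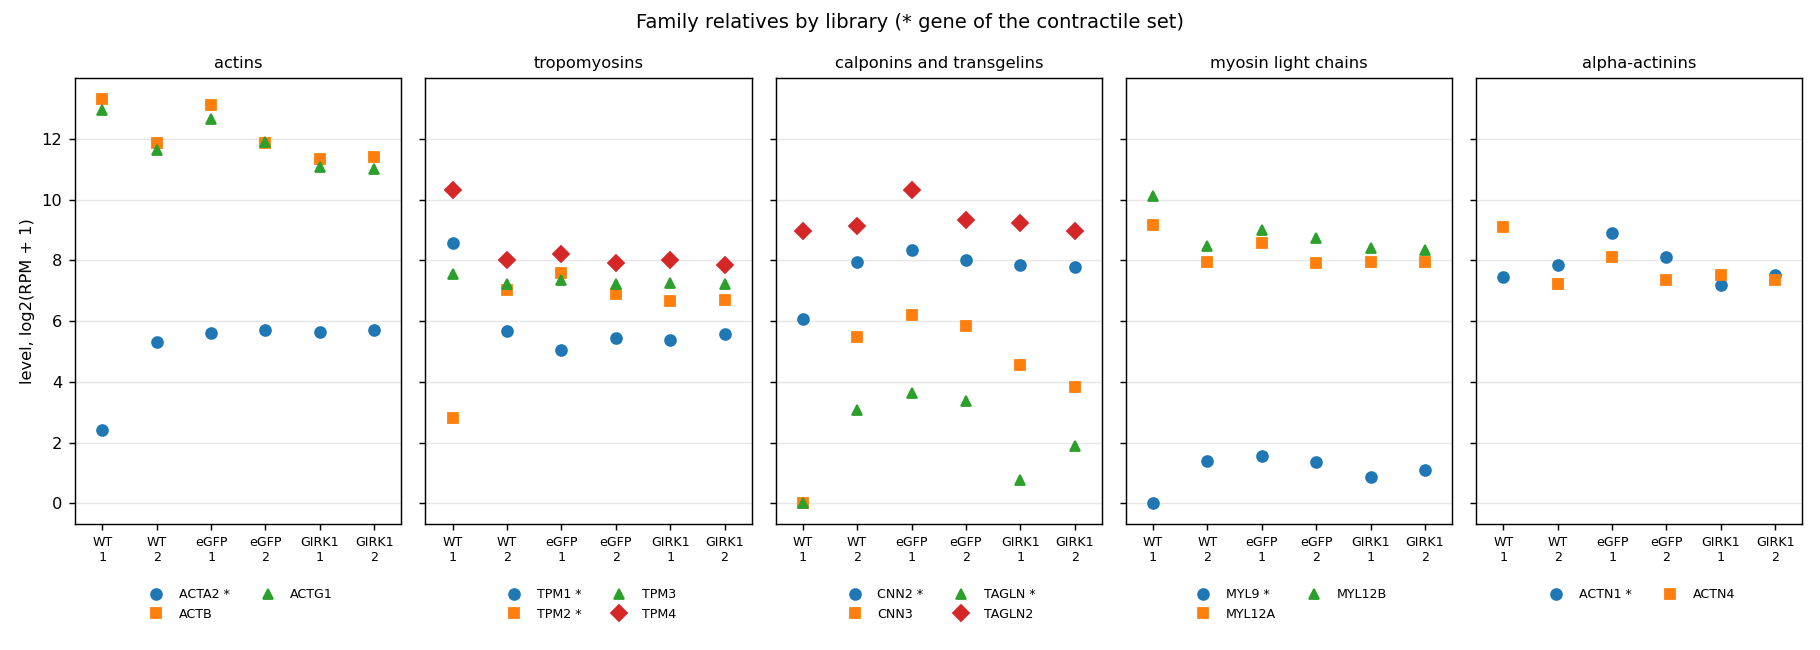
Level as log2(RPM + 1) of contractile actin genes (asterisk) and their family relatives in each library, 1 panel per protein family. In WT replicate 1, ACTA2, TPM2, CNN3 and TAGLN drop while TPM1, TPM4 and MYL12B are highest; TAGLN and CNN3 are also lower in the GIRK1 libraries than in the eGFP libraries.

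Of 24 other smooth muscle and actomyosin genes, 15 were tested and 0 passed against eGFP, with a median of -0.31. FLNA and MYH9, which took the most reads of that list, are an actin cross-linker (filamin A) and a non-muscle myosin II heavy chain. FLNA spanned 445 to 567 RPM over the 5 libraries (log2 fold change -0.24 in GIRK1 against eGFP), and MYH9 spanned 429 to 525 RPM (log2 fold change 0.06). Of 27 cofactors and targets of SRF, a list that also holds ACTB and ACTG1, 24 were tested, 1 passed and the median was -0.29. The gene that passed was THBS1, which encodes the matrix protein thrombospondin-1. It had 426 and 320 RPM in eGFP, 157 RPM in WT replicate 2, and 68.6 and 87.0 RPM in GIRK1 (log2 fold change -2.30, SE 0.28, adjusted p = 0.0176). The MRTF cofactors MKL1 (log2 fold change 0.08, adjusted p = 0.901) and MKL2 (0.72, adjusted p = 0.177) were not called. MKL2 had 19.5 and 25.8 RPM in eGFP, 17.3 RPM in WT replicate 2, and 40.0 and 36.4 RPM in GIRK1, so it was higher in GIRK1. Against WT replicate 2, 0 genes passed in any of these lists.

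Markers of other cell states moved beside these comparisons. Of the 12 basal markers, 10 were tested and 3 passed in GIRK1 against eGFP, KRT17 and LAMB3 among them. Of all genes tested, 1.43% passed. KRT17, a basal keratin, rose from 853 and 952 RPM to 3800 and 4513 RPM (log2 fold change 2.17, adjusted p = 0.00920). LAMB3, a laminin chain of the basement membrane, had 258 and 260 RPM in GIRK1 against 1747 and 1790 RPM in eGFP and fell by 2.80 on the log2 scale (adjusted p = 0.00358). The basal sum was 10517 to 11209 RPM in GIRK1, 11993 to 17957 RPM in eGFP and 9612 RPM in WT replicate 2. Of 11 fibroblast markers, 4 were tested and 1 passed, the matrix proteoglycan DCN, with 27.0 and 25.2 RPM in GIRK1 against 0.780 and 3.71 RPM in eGFP (log2 fold change 3.38, adjusted p = 0.0390). Most reads of the fibroblast sum came from VIM. This sum was 816 to 1034 RPM in GIRK1, 1384 to 1895 RPM in eGFP and 1384 RPM in WT replicate 2. WT replicate 2 lay between GIRK1 and eGFP for KRT17 (1570 RPM), LAMB3 (768 RPM) and DCN (10.2 RPM). COL1A2, PDGFRA and THY1 had 0 reads in all 6 libraries. Luminal, smooth muscle and pericyte, and endothelial and immune markers gave 0 calls among 9, 2 and 3 tested. Their part in the members' levels was not tested. In bulk libraries, fewer cells of a type and less RNA per cell cannot be told apart.

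WT replicate 1 stood apart in this gene set in both directions. Of the 9 members tested against the mean of eGFP and WT replicate 2, 6 passed (edgeR, adjusted p below 0.05), against 32.2% of all genes, and 5 of these were lower in WT replicate 1, against 17.7% of genes called lower. ACTA2, TAGLN, CNN2, TPM2 and CALD1 were lower and TPM1 was higher. By level, 6 members (ACTA2, TAGLN, CNN2, MYL9, TPM2 and CALD1) lay below all the other 5 libraries, against 34.4% of genes. TPM1 lay above them, against 37.8% of genes. For TAGLN and MYL9, at 0 reads in WT replicate 1, this order is not resolved. The floor of 3 reads there is 1.20 RPM, above the 0.720 RPM of TAGLN and 0.810 RPM of MYL9 in GIRK1 replicate 1. The members' fitted median log2 fold change was -3.47, beside -0.12 over all genes, and was -2.14 with the 3 members at 0 reads set to their bound. WT replicate 1 is a lone library, assumed in the fit to vary like the other groups.

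CALD1 had 0 reads in WT replicate 1 and 158 to 181 RPM in eGFP and WT replicate 2, so CALD1 was at least 143.2-fold lower there, set against a floor of 3 reads in that library (adjusted p = 0.000258). TPM2 had 5.98 RPM in WT replicate 1 (15 reads, exact 95% interval 3.35 to 9.87 RPM) and a mean of 147 ± 39.8 RPM in the 3 control libraries (SD, n = 3), 24.6-fold higher (log2 fold change -4.71, SE 0.51, adjusted p = 0.00140). ACTA2 had 4.39 RPM there (11 reads, interval 2.19 to 7.85 RPM) and 46.1 ± 6.11 RPM in the controls, 10.5-fold higher (log2 fold change -3.47, SE 0.37, adjusted p = 0.00129). None of these intervals reached the lowest of the other 5 libraries.

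TAGLN had 0 reads in WT replicate 1 and was at least 7.87-fold lower there (adjusted p = 0.0222). CNN2 was reduced but still plainly present, at 67.0 RPM (interval 57.3 to 78.0 RPM) against 276 ± 40.9 RPM, 4.12-fold (log2 fold change -2.14, SE 0.31, adjusted p = 0.00393). MYL9 had 0 reads too, a bound of at least 1.43-fold, and was not called (adjusted p = 0.0653). At the depth of WT replicate 1 a MYL9 level like that of the controls would be only a few reads.

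TPM1 went the other way. Its 377 RPM in WT replicate 1 (945 reads, interval 353 to 402 RPM) were 9.10-fold above the mean of 41.5 ± 8.91 RPM in the controls (log2 fold change 2.99, SE 0.24, adjusted p = 0.000546). So the tropomyosins of this list changed in opposite directions in the same library. ACTN1 (174 RPM, log2 fold change -0.91, SE 0.41, adjusted p = 0.134) and SRF (67.4 RPM, log2 fold change -0.22, SE 0.26, adjusted p = 0.538) were not called. Their WT replicate 1 values fell within the range of the other 5 libraries.

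Among the 9 family relatives tested in WT replicate 1, 4 passed, 3 higher and 1 lower. Of all genes tested in this comparison, 32.2% passed and 17.7% were called lower, which stands beside every count in this paragraph. TPM4, another tropomyosin, had 1286 RPM there and 229 to 297 RPM in the other 5 (log2 fold change 2.14, adjusted p = 0.00190), and MYL12B, a non-muscle light chain (log2 fold change 1.30, adjusted p = 0.00969), and ACTN4, the other non-muscle alpha-actinin (log2 fold change 1.43, adjusted p = 0.0220), were also higher. CNN3 had 0 reads there (adjusted p = 0.00136). Of the other smooth muscle and actomyosin genes 1 rose and 6 fell among 15, with MYH9 lower (log2 fold change -0.94, adjusted p = 0.0344). Of the SRF cofactors and targets 3 rose and 9 fell among 24, among them FHL2, a LIM-domain partner of actin signalling, at 5.19 RPM against 58.3 to 78.8 RPM (log2 fold change -3.76, adjusted p = 0.000823). Of the cell type markers tested, all 10 basal markers and 3 of 4 fibroblast markers were lower, 8 of 9 luminal markers were higher and 1 lower, 1 of 2 smooth muscle and pericyte markers was higher (NOTCH3, 69.8 RPM) and 2 of 3 endothelial and immune markers were lower. Their part in the members' values was not tested.

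The patterns most like those of 4 members over the 6 libraries were measured as Pearson's r of log2(CPM + 1), as a description without a test. ACTA2 was followed most closely by OSBPL3 (r = 0.9998), DUOX1 and CPNE8 (both 0.998). TAGLN was followed by CECR5 (0.993), LIMA1 (0.992) and NOTCH2NL (0.990), TPM2 by SLC36A4 (0.9996), DYRK3 and ZAK (both 0.999), and SRF by MSRA and GPHN (both 0.995) and ANKRD11 (0.984). CNN1, at 0 throughout, gave none. The patterns of ACTA2, TAGLN and TPM2 hold the gap of WT replicate 1. With that library left out, OSBPL3 still led for ACTA2 (r = 0.987, 5 libraries), MSRA stayed among the 3 closest to SRF (0.995), and the leading gene for TPM2 became ZBED2 (0.999).

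Members also paired differently with and without WT replicate 1, again as a description, since the genes share the libraries and their unequal depths. ACTA2 and CALD1 had r = 0.993 over 6 libraries and -0.07 over 5. ACTA2 and TPM1 had r = -0.987 over 6 and -0.38 over 5. TAGLN and MYL9 had r = 0.934 over 6 and 0.983 over 5, and CNN2 and TPM2 had 0.998 and 0.966.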

How the data were processed

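Ion AmpliSeq Transcriptome libraries of 6 samples labelled MCF10A had been read on an Ion S5 XL. The authors had mapped them with the Ion Torrent suite to a transcript reference of 1 amplicon per gene. The deposited counts are whole reads per amplicon, and the deposited RPM are these counts divided by the library total and scaled. How reads of near-identical copies were handled is not given in the sources used here. The 10 spike-in amplicons, with 0 reads, were left out. Groups came from the labels. The members, the gene lists and the tests were chosen with earlier results of these data known. The test was that of edgeR 4.0.16 (with limma 3.58.1, in R 4.3.3) on the counts, using TMM, filterByExpr over the 3 labelled groups (11546 genes kept), the quasi-likelihood test on 4 levels (eGFP, GIRK1 and each WT library alone, 2 residual degrees of freedom, biological coefficient of variation 0.240) and an adjusted p (Benjamini-Hochberg) below 0.05 as the threshold. Each WT library was a level of its own because WT replicate 1 stood apart. Standard errors of log2 fold changes came from the F value. The procedure was tested on simulated data. DESeq2 1.42.0 was an alternative. Named genes were all members, the called genes of each list in GIRK1 against eGFP with a mean of at least 10 reads (at most 4 each way), the 2 genes with the largest mean RPM of each list and, for ACTA2, TAGLN, CNN1, TPM2 and SRF, the 3 genes of most similar pattern with a mean of at least 50 reads. Other genes named were chosen after their values were seen: CNN3, TPM4, MYL12B, ACTN4, FHL2, MKL1, MKL2 KRT14 and genes with 0 or few reads. Intervals are exact binomial. Some named genes and 1 gene list that this rule covers are not reported here.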

Additional observations from a re-analysis of the deposited data

How the results depend on the processing

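Of 468 recomputed log2 fold changes of members, 435 kept their direction and side of the threshold, 19 newly passed it and 14 changed sign. In GIRK1 against eGFP, 0 members were called in the fit reported, 2 with no filter on low counts or with DESeq2, and 1 with a replicate block (TAGLN, adjusted p = 0.0391), also in a fit of only eGFP and GIRK1. Leaving out 1 library moved the members called and also all genes called. Without an eGFP or GIRK1 library, 1 arm is a lone library. TAGLN passed in 7 of 19 other fits and ACTN1 in 4 of 20, fits with a lone arm among them, and the cause was not tested. All genes called there numbered 165, against 786 with no filter, 30 with at least 10 reads in every library, 555 with DESeq2, 0 with the 3 labelled groups (also with the replicate block), 541 with the replicate block, 590 with the block in only eGFP and GIRK1, and 177 to 2981 without 1 library.

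Against WT replicate 2, 27 genes were called, against 126 with no filter, 5 with at least 10 reads, 103 with DESeq2, 0 with the 3 labelled groups (also with the replicate block), 439 in only the libraries compared, 75 with the replicate block and 27 to 554 without 1 library. Members called there ran from 0 to 1 without 1 library (TAGLN, without eGFP replicate 1). For WT replicate 1, 3715 genes became 3696 to 6458 without 1 library (6458 without eGFP replicate 1, 6051 without eGFP replicate 2), and members called ran from 6 to 8. MYL9 was called there with eGFP and WT replicate 2 as 1 group (adjusted p = 0.0398). Scaling by total reads alone moved the median of all genes in that comparison from -0.12 to 0.06.

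By the 2-fold rule, 1 member was picked (6.29% of all genes), against 2 with the population SD (7.86%) or no limit on the coefficient (12%) and 0 on raw counts (7.4%). The sign of ACTA2 in GIRK1 against eGFP turned to 0.017 with total reads, 0.012 with the upper quartile and 0.11 with the controls pooled, and ran from -0.077 to 0.049 without 1 library (0.0024 without eGFP replicate 1, 0.049 without GIRK1 replicate 1). Against WT replicate 2 with the 3 labelled groups the log2 fold changes turned to 0.57 (CNN2), 0.59 (TPM2), 0.85 (CALD1) and 0.059 (SRF). With the replicate block added they were 0.73, 1.04, 1.71 and 0.072, and MYL9 was 0.15. The labels do not say whether same-numbered libraries were made together. Differences between replicate 2 and replicate 1 had r = 0.19 between eGFP and GIRK1 over 9212 genes. The r was 0.14 between eGFP and WT and 0.04 between GIRK1 and WT, where the WT difference holds the gap of WT replicate 1. Whether the libraries were paired was not tested and cannot be read from these values. With 2 libraries per condition and 9 to 26 reads for MYL9 and 8 to 120 for TAGLN, their values carry a large counting error. WT replicate 1 cannot be contrasted in the 3 labelled groups, and leaving out a lone WT library gives no value for its own comparison.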
